A study of Mus musculus with 37 samples.

Results

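Male (XY) primordial germ cells of the mouse embryo at E11.5 that lack Dnmt1 were compared with control germ cells of the same sex and stage. All 4 libraries labelled male Dnmt1 knockout and all 4 labelled male wild type in the E11.5 table were taken, 8 of the 18 libraries of that stage and of the 25 libraries with values. Of the 24318 genes in the table, 12061 had a mean of at least 1 RPKM over these 8 libraries and were tested. RPKM scales a gene's reads by its transcript length and by sequencing depth. Genes of short RNAs (1270 genes, 409 of them at that mean) were set apart, because their RPKM rests on very short gene models, and 10987 other genes lay below the mean.

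Both groups came from one breeding scheme: dams homozygous for the Oct4-IRES-Gfp reporter line and for a floxed Dnmt1 allele (Dnmt1 2lox) were mated with Blimp1-Cre males, and GFP-positive cells were sorted from the embryos. Knockout embryos have the genotype label Dnmt1 -/- and are called DCKO; the controls are labelled wild type, and the labels do not say which of these alleles they carried. Blimp1-Cre acts where Blimp1 (Prdm1) is expressed, which includes the founders of the germ line but also other embryonic tissues. RNA was amplified with the Ovation RNA-Seq System V2 kit before library preparation. Whether the libraries of a group stand for different embryos is not in the labels, so p-values measure the spread between these samples, some of which may be technical.

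Primordial germ cells are the embryonic precursors of sperm and eggs. As they move into the gonad they lose most of their DNA methylation, and Dnmt1, the enzyme that copies methylation onto the new strand at replication, is the main activity that could keep it in place. In other cells of the body a set of germ cell genes with CpG-rich promoters is held silent by methylation and by repressor complexes, and in germ cells these genes switch on as the marks are lost. Around this stage the gonad of an XY embryo begins to form a testis, and the germ cells still divide and carry a pluripotency programme.

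Over the 8 libraries the summed RPKM ran from 516450 to 1027688, and 8277 to 13200 genes reached 1 RPKM. Read depth is unknown, so no counting error is given. Eif2s3y, a Y-linked gene, lay at 19.4 RPKM or more in the 8 male libraries and at 0.275 or less in the 10 female ones. Libraries whose sample title starts with number 89 (controls 1 and 2, DCKO 2 and 3) resembled each other most, with correlations of log2 values across the 12061 genes of 0.86 to 0.91, against 0.53 to 0.78 for all other pairs. The labels do not say what this title number marks. Control 4 and DCKO 4 (title number 92) had the fewest genes at 1 RPKM. Control 3 (title number 90) and DCKO 1 (title number 88) had the highest mean levels of somatic cell markers, taken over all cell types. Over 125 markers of epithelium, macrophages, erythroid cells, endothelium, mesenchyme and somatic gonad, the mean log2(RPKM + 1) was 3.44 in control 3 and 2.33 in DCKO 1, against 0.74 to 1.73 in the other 6 libraries. Over 22 germ cell identity genes it was 3.33 in control 3 and 4.30 in DCKO 1, against 4.65 to 5.33. By cell type, over tested markers, control 3 was the highest library throughout. DCKO 1 was next for mesenchyme, endothelium and somatic gonad. It was the lowest of the 8 libraries for erythroid (0.73) and epithelial markers (1.82). For macrophages DCKO 1 (0.94) lay below controls 1 and 2 (1.78 and 1.75). Control 1 had 71 of the 125 markers at 1 RPKM or more, and DCKO 1 had 60. In bulk RNA, fewer germ cells in a sample and less RNA per cell cannot be told apart.

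**Figure D1:**
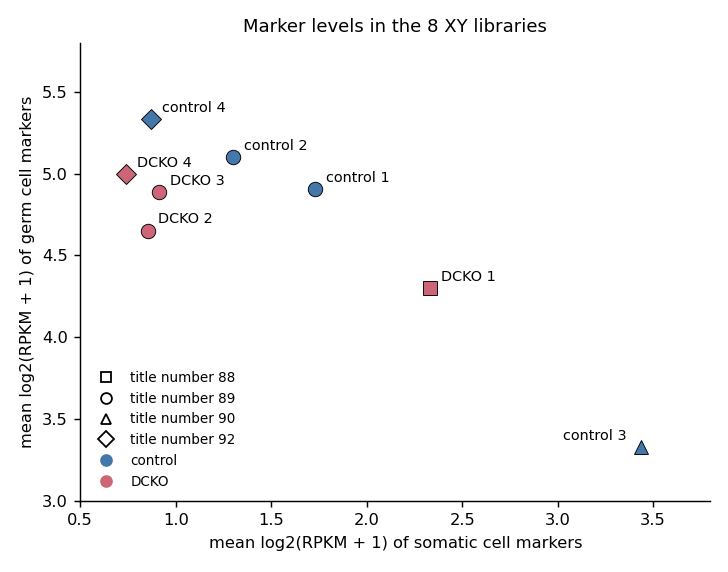
Mean log2(RPKM + 1) of 125 somatic cell markers (x axis) and of 22 germ cell identity genes (y axis) in each of the 8 XY libraries at E11.5. Control 3 and DCKO 1 lie apart from the other 6, toward higher somatic and lower germ cell levels.

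Dnmt1 itself was lower in every DCKO library. It lay at 75.9, 88.9, 94.8 and 296 RPKM in controls 1 to 4 and at 59.4, 23.1, 32.2 and 13.0 RPKM in DCKO 1 to 4. The groups did not overlap, with control 4 the highest and DCKO 1 the highest of the knockouts. The log2 fold change, here and below on the log2(RPKM + 1) scale, where low genes show a smaller change than they had, was -2.05 (SE 0.50). Over all genes limma gave an adjusted p of 0.449, so Dnmt1 did not pass the threshold of 0.05. For this gene alone the exact permutation p was 0.0286, the smallest that the 70 splits of 4 against 4 can give. Any gene with groups apart gets that p, so it adds nothing to the lack of overlap. The table has 1 value per gene, so transcripts lacking the floxed exons were counted together with complete ones. At E10.5, in a table that may have been normalized separately, Dnmt1 was at 14.9 RPKM in the 1 male DCKO library and at 99.97 and 107 RPKM in the 2 male controls.

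Of the 12061 genes 4 passed limma at a Benjamini-Hochberg adjusted p under 0.05 (0.0332%): Mrpl33 was higher in DCKO (1 gene, 0.00829%) and Npm1, Peak1 and Ift43 were lower (3 genes, 0.0249%). At an unadjusted p under 0.05, 355 genes were higher (2.94%) and 545 lower (4.52%). In 106 genes every DCKO library lay above every control (0.879%), and in 185 every DCKO library lay below every control (1.53%). If all splits were equally likely, a gene would have groups apart in either direction with probability 0.0286. Both shares together lay below that, so groups apart were no more frequent than such splits would give. With title number as a block 1 gene passed, Npm1. The median log2 fold change of all tested genes was -0.09, and 45.1% of them were above 0. None of the 409 short RNA genes passed limma's threshold in their own fit, against 15 at an unadjusted p under 0.05.

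Mrpl33, a protein of the large subunit of the mitochondrial ribosome, rose in DCKO. It was at 283, 168, 132 and 205 RPKM in controls 1 to 4 and at 957, 863, 505 and 1327 RPKM in DCKO 1 to 4. The lowest DCKO library, DCKO 3, lay above the highest control, control 1, and both belong to title number 89. The log2 fold change was 2.18 (SE 0.32, adjusted p = 0.00741 by limma). Within title number 89 alone it was 1.59, from 2 libraries a group. In female germ cells of the same stage Mrpl33 ran from 212 to 452 RPKM in 4 controls and from 266 to 447 RPKM in 6 DCKO libraries, a log2 fold change of 0.20 (SE 0.29). At E10.5 the male DCKO library had 100.1 RPKM and the 2 male controls 286 and 301 RPKM. The adjusted p stayed under 0.05 when any 1 of the 18 libraries was left out (0.00200 to 0.0397) and was 0.755 at the most in the other settings, where it missed the threshold with library weights, with the male libraries alone, with title number as a block, and in 3 fits with fewer male libraries.

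Ift43, a subunit of the intraflagellar transport complex that moves cargo along cilia, fell in DCKO. It was at 11.4, 22.1, 12.2 and 50.5 RPKM in the controls and at 1.04, 0.128, 0.464 and 0.627 RPKM in the DCKO libraries. No DCKO library came near the controls. The log2 fold change was -3.78 (SE 0.66, adjusted p = 0.0365 by limma), and within title number 89 it was -3.72. In females it ran from 15.0 to 25.6 RPKM in controls and from 3.01 to 63.5 RPKM in DCKO, so that these groups overlapped. At E10.5 the order was the other way, with 38.3 RPKM in the male DCKO library and 7.35 and 22.7 RPKM in the male controls. The call was lost without 16 of the 18 libraries, taken 1 at a time, with adjusted p up to 0.156. It was also lost in 9 other settings, among them the block by title number (Ift43 adjusted p = 0.204 by limma). Of 34 tested genes of intraflagellar transport and cilia, 14 were above 0, with a median log2 fold change of -0.19, and Ift43 was the 1 member with groups apart. Ift20, a subunit of the partner complex, had a log2 fold change of 1.98 (adjusted p = 0.611 by limma).

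Npm1, an abundant nucleolar chaperone of ribosome assembly, was listed at 0 in all 4 male DCKO libraries and at 3690, 4574, 2106 and 5521 RPKM in the controls (adjusted p = 3.91e-16 by limma). The 6 female DCKO libraries were at 0 as well, and the 4 female controls ran from 3410 to 6115 RPKM. At E10.5 the male DCKO library had 3308 RPKM and the 2 male controls 3914 and 3906 RPKM. Npm1 has many near-identical processed pseudogenes, with which it can share reads, so its value is uncertain. A value of exactly 0 may also stand for a failed estimate: 30 of the 3327 genes whose median over the 8 libraries reached 20 RPKM were listed at 0 in at least 1 of them. No fold is given for genes at 0 in a whole group. Of 24 tested genes of abundant nucleolar proteins, Npm1 included, 11 were above 0, with a median log2 fold change of -0.01, and Npm1 was the 1 that passed. Nop2, an RNA methyltransferase of the nucleolus, was at 8.64 to 35.1 RPKM in controls and 26.4 to 59.5 RPKM in DCKO, with a log2 fold change of 1.08 (adjusted p = 0.616 by limma).

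Peak1, a pseudokinase that acts on the cytoskeleton, was listed at 0 in the same 10 DCKO libraries. The male controls had 5.55, 4.03, 19.4 and 34.9 RPKM (adjusted p = 0.00760 by limma), and the female controls 2.18 to 5.37 RPKM. The Peak1 call was lost in 7 settings: with a mean of at least 5 RPKM, with the male libraries alone (adjusted p = 0.9995 by limma), with title number (0.167) or replicate number (0.0701) as the block, and in 3 fits with fewer male libraries. At E10.5 the order was the other way, with 1.24 RPKM in the male DCKO library and 0 in both male controls. In all, 6 of the 12061 tested genes were at 0 in the 4 male DCKO libraries and above 0 in the 4 male controls. The reverse held for 0 genes. Npm1 and Peak1 were the 2 of these 6 that were also at 0 in every female DCKO library. The other 4 were Fbxo27, Serpinb9, Krt19 and 4933424G05Rik. They were at 0 in 1 to 4 of the 6 female DCKO libraries, and their control values reached at most 26.0 RPKM. In male controls 4933424G05Rik was at 0.0914, 0.456, 0.902 and 26.0 RPKM, and Krt19 at 0.0668, 0.166, 7.76 and 0.330 RPKM. Tested genes at 0 in all male DCKO libraries (57) reached the mean of 1 RPKM through the controls alone. Those at 0 in all male controls (14) reached it through the DCKO libraries alone. These counts are thus a description.

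**Figure D2:**
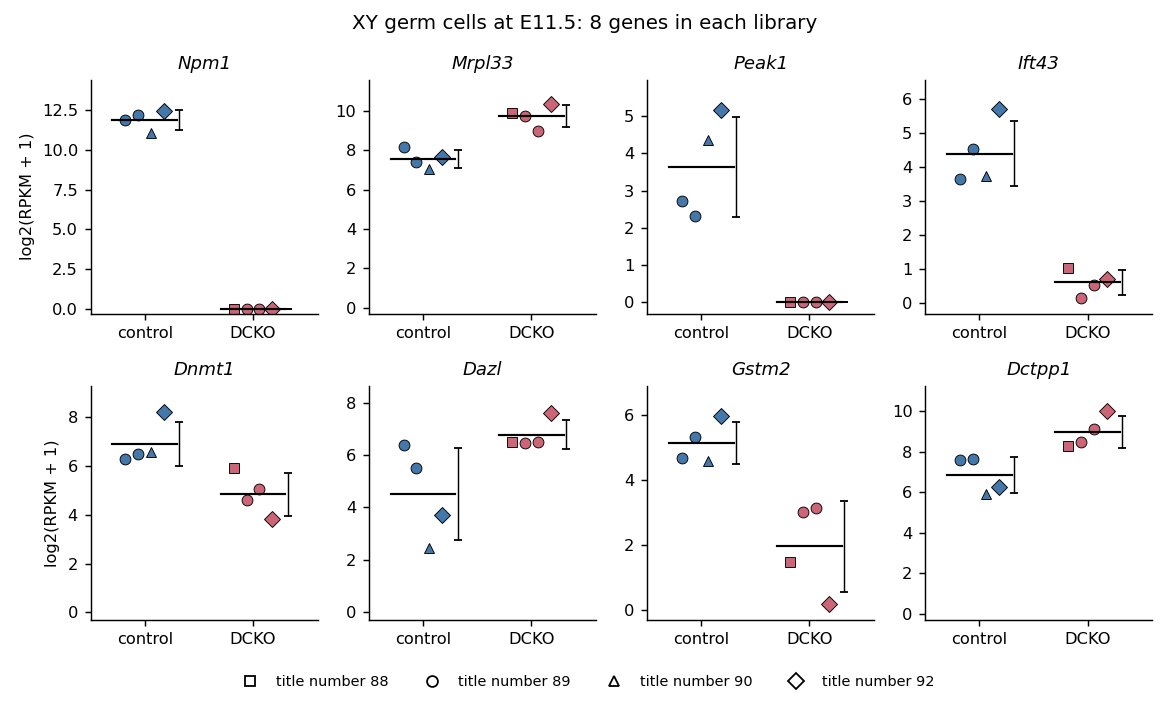
log2(RPKM + 1) of 8 genes in each XY library at E11.5, by genotype; marker shape gives the title number, the horizontal line is the group mean and the bar beside it the SD (n = 4). In all 8 panels the DCKO and control libraries are apart; Npm1 and Peak1 are at 0 in the 4 DCKO libraries.

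Dctpp1 and Gstm2 came next. Dctpp1, an enzyme that clears modified dCTP from the nucleotide pool, was at 194, 197, 59.4 and 75.3 RPKM in controls and 313, 352, 559 and 1035 RPKM in DCKO. Its log2 fold change was 2.13 (SE 0.41, adjusted p = 0.0981 by limma), and 1.18 within title number 89. Gstm2, a glutathione transferase, was at 24.3, 39.4, 23.1 and 61.9 RPKM in controls and 1.79, 7.14, 7.85 and 0.127 RPKM in DCKO. Its log2 fold change was -3.19 (SE 0.59, adjusted p = 0.0634 by limma). In females Gstm2 was at 9.31 to 31.4 RPKM in controls and 18.2 to 41.9 RPKM in DCKO, a log2 fold change of 0.86 (SE 0.54). Neither gene passed over all genes, although their male groups did not overlap.

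Methylation-repressed germline genes carry methylated promoters in somatic cells and lose that mark in germ cells. Of 49 names 48 were in the table and 41 reached the mean, 36 of them with a log2 fold change above 0. The median was 0.75, against -0.09 over all tested genes. None passed limma's threshold, 8 were higher and 0 lower at an unadjusted p under 0.05 (2.94% and 4.52% of all tested genes), and 1, Dazl, had groups apart (0.879% of all tested genes, in the higher direction). The list was drawn up with earlier results of these data known, so its direction is not independent evidence.

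The 4 members with the largest log2 fold changes among those 8 were Tex12, Dazl, Ddx4 and Mael, and the 250 bases before their transcription starts are shown for their density of CG, the dinucleotide on which Dnmt1 maintains methylation. Sequences and coordinates are from RefSeq on build GRCm38.p6, 5′ to 3′ on the strand of the gene, with each CG in capitals. Dazl lies on the minus strand at chr17:50293621-50293870, Ddx4 on the minus strand at chr13:112652311-112652560, Tex12 on the minus strand at chr9:50561269-50561518 and Mael on the minus strand at chr1:166238745-166238994.
Dazl: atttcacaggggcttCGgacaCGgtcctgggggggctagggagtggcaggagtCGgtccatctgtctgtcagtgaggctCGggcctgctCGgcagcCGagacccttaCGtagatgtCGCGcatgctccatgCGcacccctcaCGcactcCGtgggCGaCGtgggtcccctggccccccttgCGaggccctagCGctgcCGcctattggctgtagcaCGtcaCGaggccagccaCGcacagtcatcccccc
Ddx4: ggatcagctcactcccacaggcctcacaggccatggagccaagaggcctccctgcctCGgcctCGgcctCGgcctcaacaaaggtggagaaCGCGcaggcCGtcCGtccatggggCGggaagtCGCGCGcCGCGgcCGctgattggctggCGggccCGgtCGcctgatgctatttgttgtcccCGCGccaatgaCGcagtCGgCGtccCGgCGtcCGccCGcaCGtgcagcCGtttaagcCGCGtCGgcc
Tex12: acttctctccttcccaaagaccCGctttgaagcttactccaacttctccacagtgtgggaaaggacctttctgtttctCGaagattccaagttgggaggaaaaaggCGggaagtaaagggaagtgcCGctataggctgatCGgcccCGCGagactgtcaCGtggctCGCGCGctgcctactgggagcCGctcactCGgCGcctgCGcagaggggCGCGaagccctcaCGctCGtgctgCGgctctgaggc
Mael: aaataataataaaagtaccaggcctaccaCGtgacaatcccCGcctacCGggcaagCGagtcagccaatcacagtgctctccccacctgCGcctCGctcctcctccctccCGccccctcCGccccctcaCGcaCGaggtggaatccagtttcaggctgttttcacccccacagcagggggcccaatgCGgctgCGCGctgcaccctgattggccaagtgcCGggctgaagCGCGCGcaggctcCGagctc
These windows hold 20 CG in Dazl, 31 in Ddx4, 20 in Tex12 and 18 in Mael, against a median of 6 over the 32851 RefSeq promoters of the same length. Those promoters include genes that were not tested here, so they are not a matched background. Of the 41 germline genes 36 had a promoter entry, with a median of 14. The letters TCCCGC, a binding motif of E2F6, which recruits a germline gene repressor complex, were found on either strand in 12 of these 36 (33.3%) and in 16.9% of all promoters. They occur once each in Ddx4, Tex12 and Mael. The E-box CACGTG, which reads the same on both strands, was in 14 of the 36 and in 6.02% of all promoters, once each in Ddx4, Tex12 and Mael and not in the Dazl window. Of the mitochondrial ribosomal protein genes described below, 68 had a promoter entry, with a median of 17 CG. TCCCGC was in 20 of these 68 (29.4%) and the E-box in 5. Among meiotic prophase and piRNA pathway genes, which share members with the germline list, TCCCGC was in 13 of 23 (56.5%) and 4 of 16 (25%). CG density and the share with TCCCGC above those of all promoters were thus not particular to the germline list. A match of letters is a description, and methylation was not measured in these data.

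Dazl, which binds RNA and is required for germ cells to develop further, was at 81.8, 44.5, 4.5 and 12.1 RPKM in controls 1 to 4 and at 90.7, 87.6, 89.6 and 194 RPKM in DCKO 1 to 4. Every DCKO library lay above every control, with control 1 just below DCKO 2 and controls 3 and 4 far below. The log2 fold change was 2.26 (SE 0.59, adjusted p = 0.544 by limma). The exact permutation test of this gene alone gave p = 0.0286, again the value that any gene with groups apart gets. Dazl was chosen for that test with earlier results known, so the test is not independent evidence. Within title number 89 the log2 fold change was 0.55. At E10.5 the male DCKO library had 78.8 RPKM and the 2 male controls 5.90 and 30.9 RPKM. In females at E11.5 the controls ran from 17.5 to 57.2 RPKM and the DCKO libraries from 115 to 182 RPKM.

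Tex12, a component of the central element of the synaptonemal complex, was at 7.37, 0.200, 0.491 and 0.163 RPKM in controls and at 199, 12.4, 17.6 and 2.26 RPKM in DCKO. Control 1 overlapped with DCKO 4. Its log2 fold change was 3.30 (SE 0.90, adjusted p = 0.544 by limma), and 2.32 within title number 89. Ddx4, the germ cell RNA helicase known as mouse vasa homologue, was at 75.1, 48.3, 4.92 and 11.4 RPKM in controls and 76.2, 50.7, 73.8 and 130 RPKM in DCKO. Its log2 fold change of 1.79 (SE 0.58, adjusted p = 0.548 by limma) came with low values in controls 3 and 4, and within title number 89 it was 0.02. Mael, a piRNA pathway protein, was at 57.9, 25.2, 2.69 and 7.95 RPKM in controls and 24.4, 48.3, 56.9 and 63.0 RPKM in DCKO, a log2 fold change of 1.63 (SE 0.67, adjusted p = 0.617 by limma) and of 0.44 within title number 89.

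The other members with unadjusted p under 0.05 were Sohlh2, an early germ cell transcription factor, Asz1 and Rnf17, proteins of germ granules, and Slc25a31, an ADP/ATP carrier of germ cells. They were listed after their values were seen. Sohlh2 was at 61.2, 35.8, 3.74 and 9.46 RPKM in controls and 40.5, 61.9, 91.1 and 25.9 RPKM in DCKO, a log2 fold change of 1.46 (adjusted p = 0.617 by limma). Controls 1 and 2 lay within the DCKO range, and controls 3 and 4 below it. At the other end, Tdrd1, Stk31, Tex11 and Fkbp6 had log2 fold changes of -0.37, -0.17, -0.16 and -0.11.

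Control 3 was the lowest of the 8 libraries for 19 of the 41 germline genes and control 4 for 9, and control 3 was the highest for 0. The mean log2 value of the list was 3.87, 3.75, 1.47 and 2.63 in controls 1 to 4 and 2.67, 4.21, 4.32 and 3.81 in DCKO 1 to 4. Control 3 and DCKO 1, the libraries highest in somatic markers, were thus the lowest of their groups. Without control 3 the median log2 fold change was 0.38, without DCKO 1 it was 1.16, without both 0.67, and within title number 89 it was 0.30, with 31 of 40 genes above 0. The part of somatic cells in these values was not tested beyond leaving out those libraries.

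**Figure D3:**
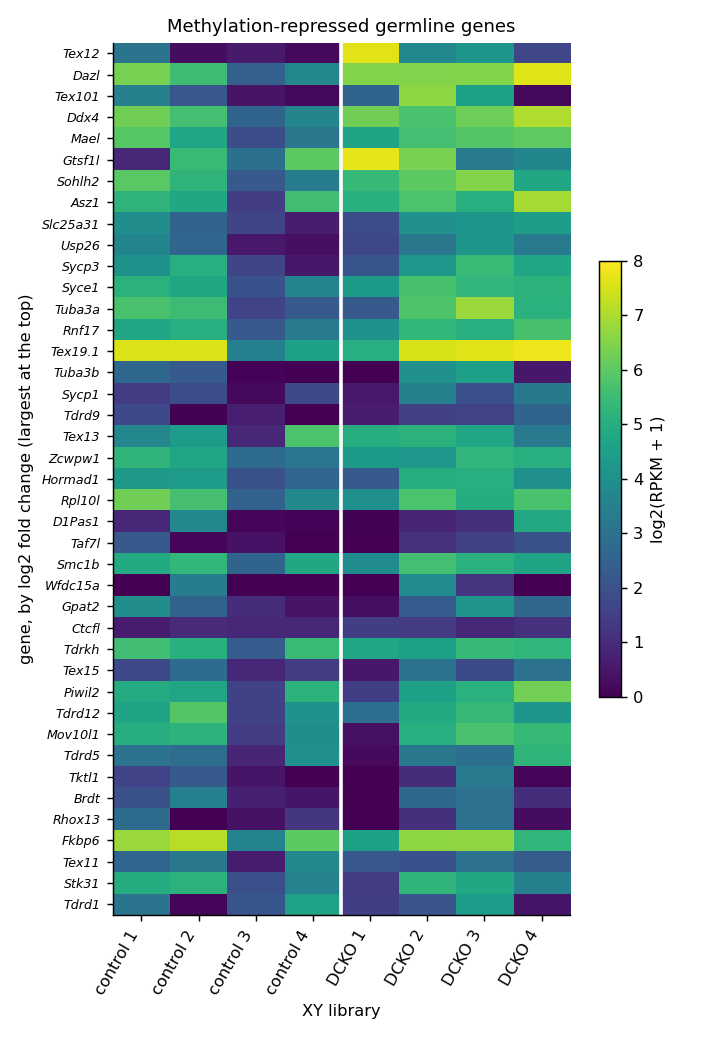
log2(RPKM + 1) of the 41 tested methylation-repressed germline genes (rows, by log2 fold change) in each XY library at E11.5, with the 4 controls left and the 4 DCKO libraries right of the white line. Control 3 is dark along most rows, and controls 1 and 2 resemble DCKO 2 and 3 in most genes.

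Meiotic and piRNA genes share members with that list, 8 and 13 of those tested. Of the meiotic prophase genes 17 of 29 were above 0, with a median of 0.36. Sycp3, a lateral element protein of the synaptonemal complex, was at 15.9, 31.1, 2.21 and 0.436 RPKM in controls and 3.40, 18.1, 41.2 and 24.9 RPKM in DCKO (adjusted p = 0.761 by limma). Trip13, an ATPase of meiotic chromosome axes that is also used in mitosis, was at 6.08 to 60.1 RPKM in controls and 59.1 to 90.6 RPKM in DCKO, a log2 fold change of 1.53 (adjusted p = 0.548 by limma). The piRNA pathway had 14 of 20 above 0, median 0.27, and 0.03 within title number 89. Without control 3 the meiotic median was -0.08 and the piRNA median -0.37. Without DCKO 1 they were 0.63 and 0.91, and without both libraries 0.30 and 0.42. Within title number 89 the meiotic median was 0.12.

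Factors that repress germline genes or write methylation showed little common direction. Of 27 tested repressors 17 were above 0, with a median of 0.06. Scml2, a Polycomb-associated protein of the germ line, was at 9.44, 10.05, 2.64 and 0.347 RPKM in controls and 28.5, 21.1, 23.5 and 66.6 RPKM in DCKO. Its groups did not overlap, at a log2 fold change of 2.72 (SE 0.62, adjusted p = 0.437 by limma), 1.12 within title number 89 and 1.57 in females. The methylation machinery had 13 of 28 above 0, with a median of -0.07. Uhrf1, the partner that brings Dnmt1 to hemimethylated DNA, was at 0.0701 to 35.5 RPKM in controls and 0.918 to 108 RPKM in DCKO (adjusted p = 0.809 by limma), and Dnmt3a at 5.11 to 67.1 RPKM and 4.17 to 13.1 RPKM (adjusted p = 0.719), with control 3 the highest library.

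Among genes above 0 in all 8 libraries and averaging 5 RPKM or more, 93 had groups apart and higher. Of the 10 largest of these differences 5 were in mitochondrial genes (Mrpl33, Mrpl55, Ndufb3, Ndufc1 and Uqcrq). The share of mitochondrial genes among the 93 was not counted. The mitochondrial lists below hold 77 and 76 of the 12061 tested genes. This grouping was read from the ranking itself, so it is a description. The 77 tested mitochondrial ribosomal protein genes had 52 above 0, a median of 0.21, and 4 with groups apart and higher (0.879% of all tested genes), Mrpl33, Mrpl35, Mrpl55 and Mrps17. At an unadjusted p under 0.05, 12 were higher and 0 lower, against 2.94% and 4.52% of all tested genes. Mrps17 was at 45.5, 23.9, 33.1 and 7.21 RPKM in controls and 53.8, 102, 50.4 and 136 RPKM in DCKO (log2 fold change 1.73, adjusted p = 0.544 by limma). In females the median was -0.13, with 29 of 77 above 0. Within title number 89 the male median was 0.41, with 63 of 77 above 0, and without control 3 it was 0.09.

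A list of 76 tested nuclear-encoded genes of the respiratory chain was added after these values were seen. It had 53 genes above 0, a median of 0.25, and 9 with groups apart, all higher (0.879% of all tested genes). Ndufc1, an accessory subunit of complex I, was at 149, 147, 117 and 19.8 RPKM in controls and 1531, 379, 356 and 269 RPKM in DCKO (log2 fold change 2.50, adjusted p = 0.437 by limma). Ndufb3, another such subunit, was at 2.74 to 110 RPKM and 122 to 264 RPKM, and Uqcrq, of complex III, at 40.1 to 173 RPKM and 189 to 988 RPKM. Without control 3, which was the lowest library for 35 of the 76 genes, the median was -0.04. It was 0.43 without DCKO 1, 0.19 without both, and 0.35 within title number 89, with 58 of 76 above 0.

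A list of 77 cytosolic ribosomal protein genes, also added later, had 76 above 0, median 0.52, and control 3 was the lowest library for 76 of the 77. Its mean log2 value was 9.12 in control 3, against 10.21 to 10.88 in controls 1, 2 and 4 and 10.54 to 10.82 in DCKO. Without control 3 the median was 0.20, without DCKO 1 it was 0.59, and without both 0.24. Within title number 89, which does not hold control 3, it was 0.41, with 75 of 77 above 0. In females the median was 0.12, with 63 of 77 above 0. Many of these genes have near-identical pseudogenes and are uncertain. All 3 lists are made largely of short genes, with 40 of 77, 59 of 76 and 62 of 77 members in the lowest quintile of length (longest annotated transcript). The median log2 fold change over all genes was 0.04 in that quintile and -0.15 in the longest one, and -0.04 and 0.02 in females. The part of transcript length in these lists was not tested.

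The same ranking also held Epb4.1l4aos, an antisense gene that cannot be told from its partner without strand, and Engase, a cytosolic glycosidase. Engase was at 1.56, 2.65, 0.957 and 0.0379 RPKM in controls and 17.0, 9.24, 2.80 and 12.4 RPKM in DCKO, a log2 fold change of 2.24 (SE 0.64, adjusted p = 0.544 by limma), and in females it was -0.74.

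Among the 10 largest negative differences with groups apart under the same limits on level, several came with a high value in control 4. Map1lc3a, an autophagosome protein, was at 39.1, 35.1, 21.9 and 390 RPKM in controls and 5.84, 7.52, 17.0 and 0.709 RPKM in DCKO (log2 fold change -3.20, adjusted p = 0.544 by limma). Mib2, a ubiquitin ligase of the Notch pathway, was at 2.02, 1.54, 2.60 and 175 RPKM in controls and at 0.0865 RPKM or less in DCKO. Sh3bp1, a GTPase-activating protein for Rac, was even across the controls. It was at 15.1, 10.7, 16.1 and 8.54 RPKM in controls and 0.0685, 0.303, 0.628 and 5.78 RPKM in DCKO (log2 fold change -2.74, adjusted p = 0.544 by limma), and -3.23 within title number 89. Rpp25l, Nabp2, Cpne2, Dap and Nfkbib had log2 fold changes between -2.97 and -2.53, each with control 4 the highest library.

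Imprinted genes, whose parental expression depends on methylation, had negative medians in males, which turned positive when control 3 alone was left out. Paternally expressed ones had 9 of 27 above 0, with a median of -0.36 in males and 0.26 in females, and maternally expressed ones 10 of 23, with medians of -0.27 and 0.35. None passed. Peg12 was at 2.61, 4.68, 5.87 and 5.51 RPKM in controls and 0.201, 1.06, 0.595 and 0.699 RPKM in DCKO, with groups apart and a log2 fold change of -1.77 (adjusted p = 0.585 by limma). H19, a maternally expressed non-coding RNA, was at 135, 79.4, 1400 and 110 RPKM in controls and 2024, 26.7, 30.6 and 17.7 RPKM in DCKO. Igf2, its paternally expressed neighbour, was at 1137 RPKM in control 3 and 1116 RPKM in DCKO 1, and at 1.33 to 81.2 RPKM in the other 6. Both genes were thus highest in the libraries highest in somatic markers. The paternally and maternally expressed medians were 0.05 and 0.64 without control 3, -1.16 and -0.22 without DCKO 1, and -0.47 and -0.19 without both. Within title number 89 they were -0.56 (6 of 24 above 0) and -0.43 (7 of 21).

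Pluripotency and germ cell identity genes had medians of 0.11 (15 of 27 above 0) and 0.12 (13 of 21). Without control 3 these medians were -0.49 and -0.49, and within title number 89 they were -0.40 (4 of 27 above 0) and -0.31 (8 of 21). In females they were -0.33 (6 of 27) and -0.16 (8 of 21). Pou5f1 (Oct4), whose reporter was used for sorting, was at 58.0, 89.8, 7.15 and 499 RPKM in controls and 14.8, 59.2, 54.8 and 37.2 RPKM in DCKO. It was lowest in control 3 and next in DCKO 1. Dppa3, a germ cell protein that protects methylated DNA in the early embryo, was at 153 RPKM in control 3, 643 RPKM in DCKO 1 and 1802 to 2774 RPKM elsewhere. Cxcr4, the receptor that guides migrating germ cells, was at 16.1, 28.4, 4.99 and 26.3 RPKM in controls and 2.18, 3.90, 8.42 and 0.431 RPKM in DCKO (log2 fold change -2.15, adjusted p = 0.558 by limma).

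Genes of p53 signalling and apoptosis had 14 of 38 above 0, median -0.40, and -0.19 without DCKO 1. Trp53 was at 197 to 416 RPKM in controls and 184 to 319 RPKM in DCKO, and Cdkn1a, its target and a cell cycle inhibitor, at 5.96 to 42.2 RPKM and 17.2 to 143 RPKM (adjusted p = 0.842 by limma and 0.799). Bax, a promoter of apoptosis, was at 17.6 to 74.0 RPKM and 37.8 to 127 RPKM (adjusted p = 0.683). Cell cycle and replication genes had 17 of 41 above 0, median -0.05. Repair genes of the Fanconi and homologous recombination lists had 17 of 29 above 0, median 0.10, and Slx4 and Atr had groups apart and higher (0.879% of all tested genes). Slx4, a nuclease scaffold, was at 7.58 to 9.29 RPKM in controls and 11.01 to 45.9 RPKM in DCKO (log2 fold change 1.15, adjusted p = 0.619 by limma).

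Interferon and nucleic acid sensing genes had 6 of 14 above 0, median -0.28, and 0.33 without DCKO 1. Handling and heat stress genes had 10 of 25 above 0, median -0.16. Within title number 89 their median was -0.61 (3 of 25 above 0), and in females -0.39 (6 of 25). Mt1, a metallothionein, was at 5.93, 34.4, 9.72 and 70.7 RPKM in controls and 0.695, 0, 0 and 11.3 RPKM in DCKO (log2 fold change -3.28, adjusted p = 0.548 by limma), and in females it had a log2 fold change of -3.57. DCKO 4 overlapped with controls 1 and 3. Male germ cell differentiation genes had 9 of 21 above 0, median -0.07, and the X-linked Rhox, Mage and Xlr families, which contain near-identical copies and are uncertain, 15 of 24 and 0.42, or 0.13 without control 3.

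Most markers of other cells had log2 fold changes below 0, and their summed levels were highest in control 3 and DCKO 1. Of the 125 markers 83 were tested, with 13 above 0, median -0.73. Their summed level was 1102, 906, 5824 and 1403 RPKM in controls 1 to 4 and 3679, 782, 647 and 827 RPKM in DCKO 1 to 4. Amh, a Sertoli cell hormone, was at 0.260 RPKM in control 3, near the floor, and at 0 in all others. Wt1, a factor of the gonadal ridge, was at 33.0 RPKM in control 3, 14.7 RPKM in DCKO 1 and 0 to 7.05 RPKM elsewhere. Epcam, listed as epithelial, went the other way, at 37.3 RPKM in control 3, 34.4 RPKM in DCKO 1 and 86.3 to 190 RPKM elsewhere. Cdh1, also listed as epithelial, was at 10.7 and 17.6 RPKM in these libraries and 16.8 to 80.6 RPKM elsewhere. Pecam1, listed as endothelial, was at 26.9 and 30.6 RPKM in them and 21.2 to 158 RPKM elsewhere. DCKO 4 lay below DCKO 1 for Cdh1 and Pecam1. Epcam, Cdh1 and Pecam1 were kept in the marker means and sums. The erythroid globin Hba-x was at 1470 RPKM in control 3 and at most 3.88 RPKM in the other 7 libraries.

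Mesenchyme markers had 1 of 23 above 0, median -1.0, against 0.59 in females. Vim, an intermediate filament protein, was at 41.4, 46.7, 341 and 28.9 RPKM in controls and 98.9, 3.94, 3.51 and 0.407 RPKM in DCKO (log2 fold change -3.17, adjusted p = 0.558 by limma). S100a6, a calcium-binding protein, was at 7.23, 17.6, 4.07 and 226 RPKM in controls and 0, 0, 1.41 and 0.257 RPKM in DCKO, with groups apart (adjusted p = 0.437). The mesenchyme median was -0.041 without control 3, -1.86 without DCKO 1 and -1.07 without both. Within title number 89, which holds neither library, it was -1.53 (1 of 19 above 0), with endothelium at -1.14 (3 of 13) and gonadal somatic cells at -0.74 (1 of 11). Macrophage markers had 2 of 6 above 0. C1qb, a complement component, was at 4.92, 19.9, 3.99 and 0 RPKM in controls and 0, 0, 0.129 and 0 RPKM in DCKO, and it passed limma without control 4 (adjusted p = 0.0200). Epithelial markers had 3 of 9 above 0, median -0.96. Cdx2, a homeobox factor of the gut and of early embryos, was at 0.136, 0.0373, 0.204 and 0 RPKM in controls and 9.37, 0.0921, 3.51 and 6.40 RPKM in DCKO (log2 fold change 2.01, adjusted p = 0.558 by limma). The part of admixed cells in the germ cell comparisons was not tested beyond leaving out control 3 and DCKO 1, after which Npm1 was the 1 gene called. Over the 28 lists of all kinds, the median took the other sign in 9 without control 3, in 5 without DCKO 1 and in 7 without both.

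**Figure D4:**
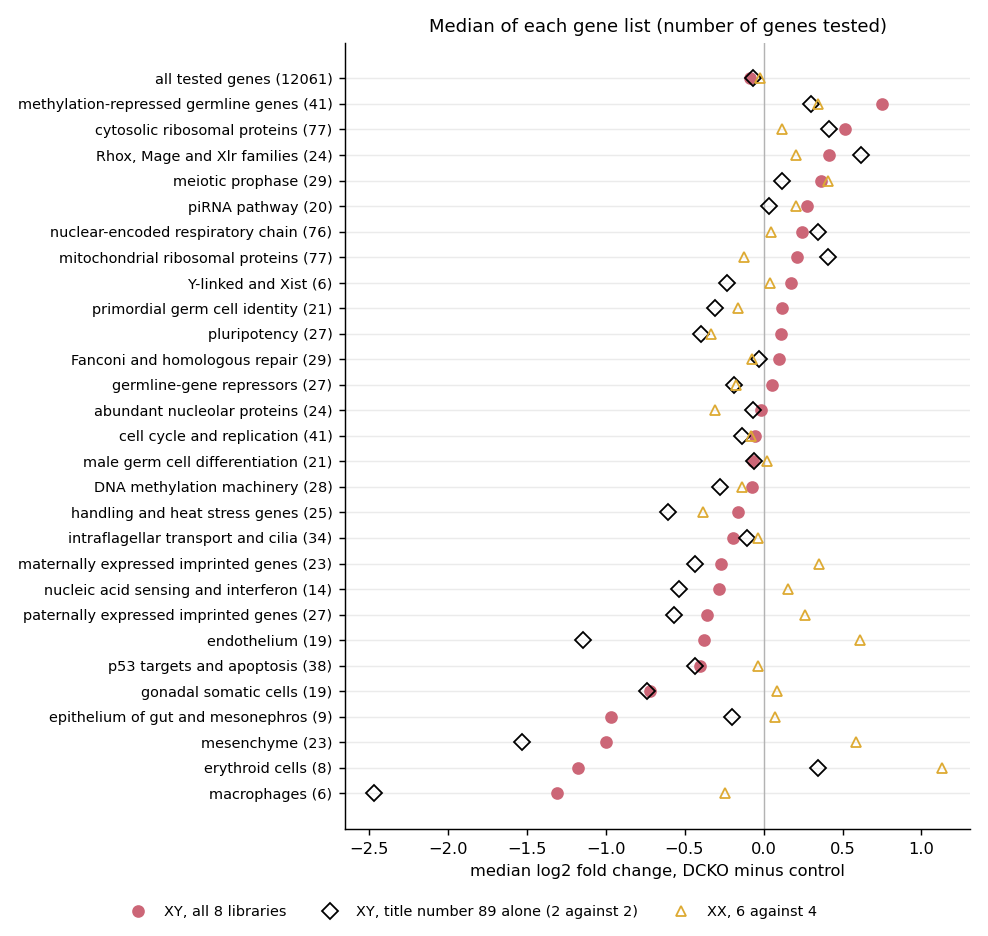
Median log2 fold change (DCKO minus control) of each gene list, with the number of tested genes in brackets, for all 8 XY libraries, for the 4 XY libraries of title number 89, and for XX libraries. The germline list is highest in XY (0.75), and macrophage markers are lowest (-1.31).

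The genotype difference was compared between sexes with an interaction term over the 18 libraries. It gave 0 genes past limma's threshold (0%), against 438 at an unadjusted p under 0.05. Gstm2 had the smallest p, with a female minus male difference of 4.04 on the log2 scale (adjusted p = 0.688 by limma), and Mrpl33 the next, at -1.98 (adjusted p = 0.995). So no gene was shown to respond differently in XY and XX germ cells, and for Mrpl33 and Ift43 the call in males alone does not show a difference. Of the 106 genes with higher XY groups 64 (60.4%) were also above 0 in females, against 48.0% of all tested genes, and of the 185 with lower groups 65 (35.1%) were.

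**Figure D5:**
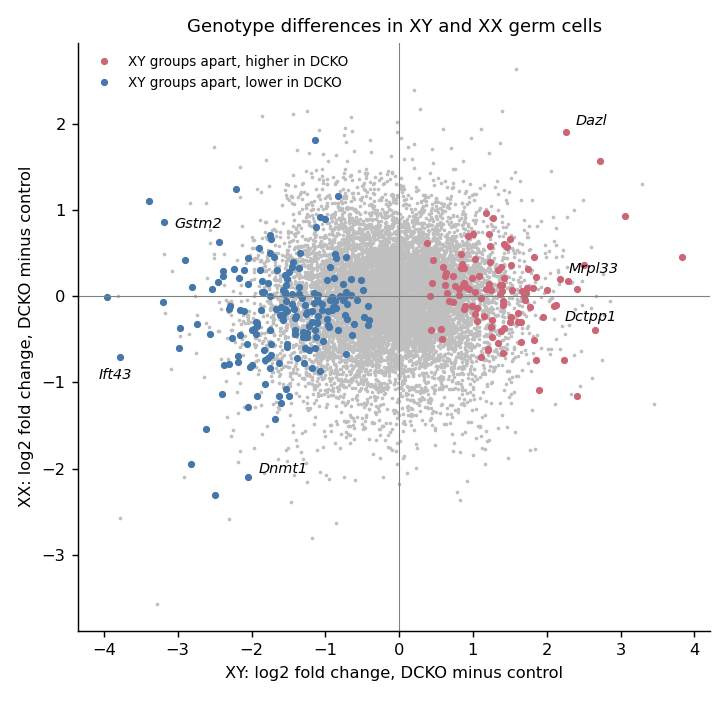
log2 fold change of each tested gene in XY (x axis) and XX (y axis) germ cells at E11.5; coloured points are genes whose XY groups do not overlap. Dazl and Dnmt1 lie along the diagonal, Mrpl33 and Dctpp1 near 0 in XX, and Gstm2 above 0 in XX; the 6 genes listed at 0 in all male DCKO libraries and in no male control are not drawn.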

How the data were processed

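Sorted germ cells were profiled by RNA sequencing. The authors deposited 1 table of RPKM values per stage, and the E11.5 table (18 libraries) was used, with 3 male E10.5 libraries as values only. The labels describe 37 samples; the 12 at E13.5 were not analysed here. Per the submitters' processing notes, the tools named are TopHat2 2.1.0, Cufflinks 2.2.1 and Cuffdiff, with build mm9. The sources used here do not give their roles or the gene models. Groups follow the labelled sex and genotype, and replicate numbers come from the labels.

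Tests used limma 3.58.1 (R 4.3.3) on log2(RPKM + 1) values with an intensity trend, two-sided, with 4 group means over the 18 libraries, so that females share the estimate of spread. Tested were genes whose mean over the 8 male libraries reached 1 RPKM, and p-values were adjusted by Benjamini-Hochberg over all of them. Symbols of short RNAs (Mir, Snor, Scarna, Rnu and the like) were fitted apart, but their long host genes (ending hg, or Mirg) stayed in. The fit was tested on simulated data. Same-numbered male replicates deviated from their group means with correlations of -0.15, 0.15, -0.23 and 0.16, with no common sign. Replicates 2 and 4, which had the positive values, also share a title number. These 4 values cannot exclude a pairing by number, and the main fit used none. The 5 male pairs that share a title number had 0.12 to 0.25, and DCKO 1 with control 3, which do not, 0.45.

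Members, 26 gene lists and tests were chosen with earlier results of these data known, and 2 lists were added later. Named were Dnmt1, every gene past the threshold, the 10 largest positive and negative differences with groups apart, a mean of 5 RPKM or more and no library at 0, up to 2 members per list with the smallest p, and the 2 smallest interaction p; 67 genes in all, with 1 more that is not reported here. Further genes were chosen after their values were seen. RefSeq promoters matched 78.7% of tested genes by symbol. CG and motif values over the tested genes alone are not given. The background is all promoters in the RefSeq table, which also holds genes that were not tested. Transcript lengths are from GENCODE M21 and matched 99.3%. Alternatives were other pseudocounts (0.1 and 0.5), filters, scalings, library weights, a robust prior, blocks, males alone and leaving out each library. Chosen after seeing the data were fits without control 3 and DCKO 1, without control 4 and DCKO 4, and with title number 89 alone.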

Additional observations from a re-analysis of the deposited data

Results flagged for a closer look

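In 27 of 186 groups of 4 male libraries (67 genes and 26 list means, in controls and in DCKO) the highest or lowest library stood further from the next than Dixon's 95% limit on the log2 scale. Chance flags about 1 in 20 groups.

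Control 4 stood apart for Dnmt1 (296 RPKM), Mib2 (175 RPKM) and Cpne2 (66.8 RPKM) on the high side, and for Ndufc1 (19.8 RPKM), Ift20 (1.22 RPKM) and the endothelial gene Eng (0.854 RPKM) on the low side. Control 3 stood apart for Zim1 (30.7 RPKM), for the red cell genes Slc4a1 (9.08 RPKM) and Hba-x (1470 RPKM), and for the list means of erythroid cells (5.78), Fanconi and homologous repair (3.46) and nucleolar proteins (5.25). Control 1 was high for Tex12 (7.37 RPKM).

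DCKO 1 stood apart for the list means of gonadal somatic cells (3.23), mesenchyme (5.02) and endothelium (4.19), for Lhx9 (1.77 RPKM) and Tmem173 (0.0483 RPKM), and on the low side for Nfkbib (0.124 RPKM). DCKO 4 was high for Dazl (194 RPKM), Ift20 (366 RPKM), Magea3 (10.1 RPKM) and the mean of Y-linked genes and Xist (3.70). DCKO 3 stood apart for Ret (0.984 RPKM), Eng (5.09 RPKM), C1qb (0.129 RPKM) and Tyrobp (0.271 RPKM), the last pair against 0 in the other 3 DCKO libraries. Tmem173 was likewise at 0 in the 3 DCKO libraries other than DCKO 1. With 3 libraries tied at 0 any value above 0 is flagged, so these flags are not outliers of any size.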

How the results depend on the processing

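The count of 1 higher gene became 0 with the male libraries alone, with the replicate block by title number, and without the libraries highest in somatic markers, without those with the fewest genes or with title number 89 alone. The count of 3 lower genes became 6 with library weights, 0 with genes at 0 in a whole male group left out, and 1 with the male libraries alone, with the replicate block by title number or by replicate number, and in the same 3 reduced sets. Leaving out each library gave 1 to 2 higher and 2 to 3 lower genes; the second higher gene came without control 4 or without DCKO 3. Genes with groups apart numbered 106 to 284 higher and 185 to 462 lower without 1 library, 122 lower with a mean of at least 5 RPKM, and 421 and 618, 477 and 794, and 1836 and 2433 in the 3 reduced sets, where fewer libraries make separation easier. The interaction count was 0 in every fit that gave one.

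Without 1 library the log2 differences were -2.40 to -1.60 for Dnmt1 and 1.58 to 2.88 for Dazl; with 3 against 4 libraries, leaving out a Dnmt1 control or a Dazl DCKO library put the exact permutation p above 0.05. Signs reversed for Lin28b (-0.21) with title number 89 alone, for Eng with library weights (-0.0129), in the set without the fewest-gene libraries (-0.0199) and with title number 89 alone (-0.14), for Kdm5d in the same 3 settings (-0.19, -0.30 and -0.22), and for Xist with the replicate block by title number (0.0344); none was past the threshold. The cause was not tested. Of the other values of named genes, 2189 kept their side of the threshold, 38 lost it and 5 passed it. Read depth is unknown, and 4 libraries a group limit the precision.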
